A study of Oncorhynchus mykiss with 8 samples.

Results

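Skeletal muscle of large rainbow trout (Oncorhynchus mykiss) was compared with that of small trout on 4 of the 8 arrays of the series, those titled as muscle of large and small fish. Of 43,603 probes, 41,652 had a value on all 4 muscle arrays and are described here, while 1951 lacked at least 1. The arrays form 2 pool pairs, each a pool of large and a pool of small fish hybridised on 2 arrays with the dyes exchanged, so n = 2 throughout. All fish were of the Lyndon strain, were offspring of neomales, and were fed ad libitum at the Alma Aquaculture Research Station; the labels separate the groups by size alone. Neomales are genetically female fish turned into functional males, so their offspring are expected to be female. Every pool combined mRNA of 5 fish, so differences between single fish cannot be seen. Ages, body weights and the limit between small and large are not given in the sources used here. The submitters count 4 replicates per size over both tissues, so 2 independent pools per size in muscle is a reading of the titles. The remaining 4 arrays held liver and serve only for comparison.

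Trout muscle grows throughout life, both by forming new fibres from satellite cells and by enlarging existing ones. Pax7 marks satellite cells, the myogenic factors of the MyoD family drive their commitment and differentiation, and myostatin restrains growth. Growth hormone, insulin-like growth factors and thyroid hormone act on these steps from outside the fibre.

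Each array value is a log2 ratio of both dye channels, and neither the numerator nor whether the authors had already turned the arrays with exchanged dyes is given in the sources used here. Therefore 2 readings of each probe were computed. In the turned reading, the 647 array of a pair, the one carrying large fish in that dye, had its sign changed before both arrays were averaged. In the reading as deposited, both were averaged unchanged. Only 1 of the 2 readings can hold the contrast between large and small fish. In the other that contrast cancels within each pair, and what remains includes differences between the dyes. Array values below follow 1 order: pool pair 1 with large fish in the 555 dye, pool pair 1 with large fish in 647, then pool pair 2 likewise. A positive turned value is one whose 555 arrays were positive on average relative to the 647 arrays, and which size of fish had more of a transcript cannot be stated for any probe.

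The 4 muscle arrays were alike in scale, with SDs of 0.32 to 0.33 across probes and medians of -0.01 to 0.01, against SDs of 0.55 to 0.92 in liver. Pair values correlated across 41,652 probes with r = 0.316 between the pool pairs when turned and r = -0.095 as deposited. Between single arrays r ranged from -0.338, for the arrays of pair 1 in 647 and pair 2 in 555, to 0.171 for both arrays with large fish in 555. The 2 arrays of a pair, which hold the same RNA, had r = -0.082 in pair 1 and 0.080 in pair 2 as deposited. Both are small, so the arrays of a pair agreed little across probes in either reading. Muscle means correlated with liver means over 34,757 probes with r = 0.272 when turned and 0.074 as deposited. Probes are not replicates, the arrays share a design, dyes and spotted probes, and these coefficients are descriptions. Over the 60 control spots, turned means ran from -0.13 to 0.69 with a median of 0.02, and means as deposited from -0.45 to 0.26 with a median of 0.03.

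**Figure D1:**
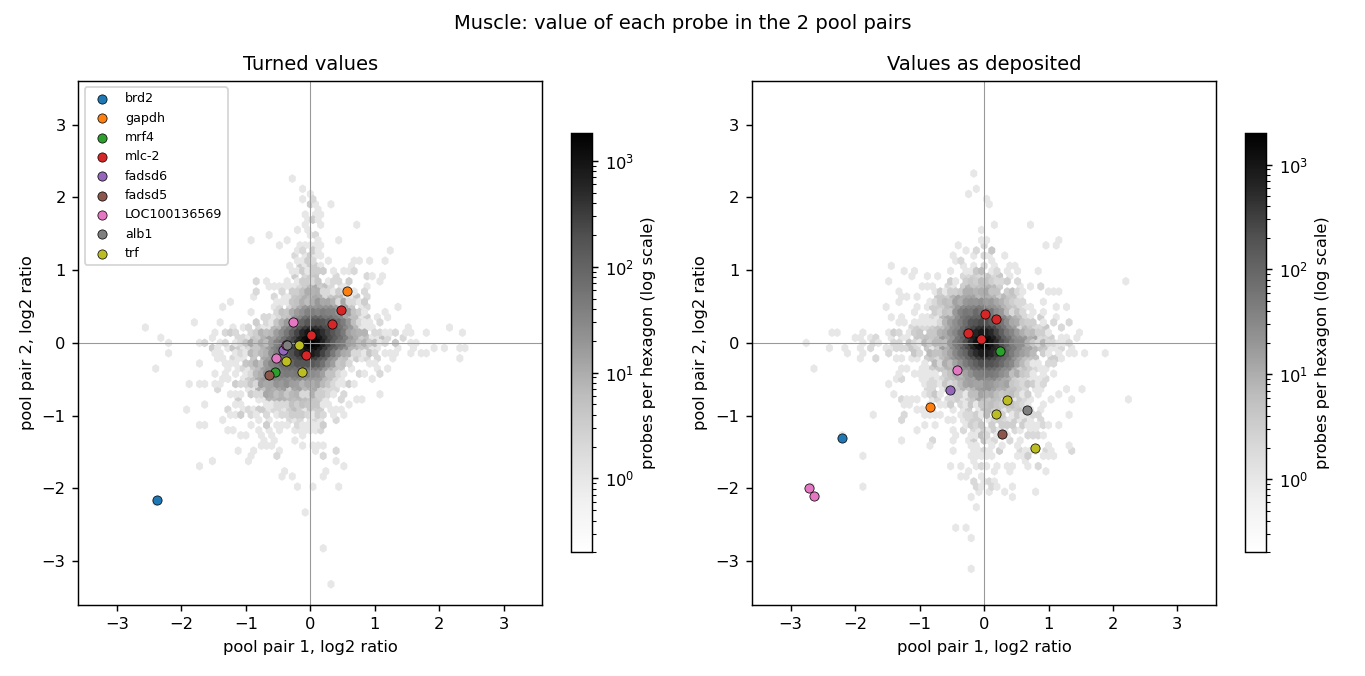
Log2 ratio of each of 41,652 probes in pool pair 1 (x axis) against pool pair 2 (y axis), turned on the left and as deposited on the right; grey hexagons count probes on a log scale and coloured points are probes of 9 genes. Turned values run along the diagonal (r = 0.316), with brd2 farthest out among the coloured genes, while as deposited the cloud has no such slope (r = -0.095) and 2 probes of LOC100136569 lie far below 0 in both pool pairs.

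The signs on the 4 arrays show what each reading rests on. A single sign on all 4 arrays was found for 17.2% of probes once turned and for 10.6% as deposited. In 13.0% the sign was shared within each pair but opposite between the pairs as deposited, and in 9.29% this held once turned. In 48.1% of probes 1 array stood apart from the other 3. Among the 691 probes whose values exceeded 0.3 in size on all 4 arrays, 269 (38.9%) had 1 sign once turned, 70 (10.1%) had 1 sign as deposited and 135 (19.5%) had opposite pairs as deposited. In another 202 (29.2%) 1 array stood apart. No single pattern held most of these larger ratios.

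**Figure D2:**
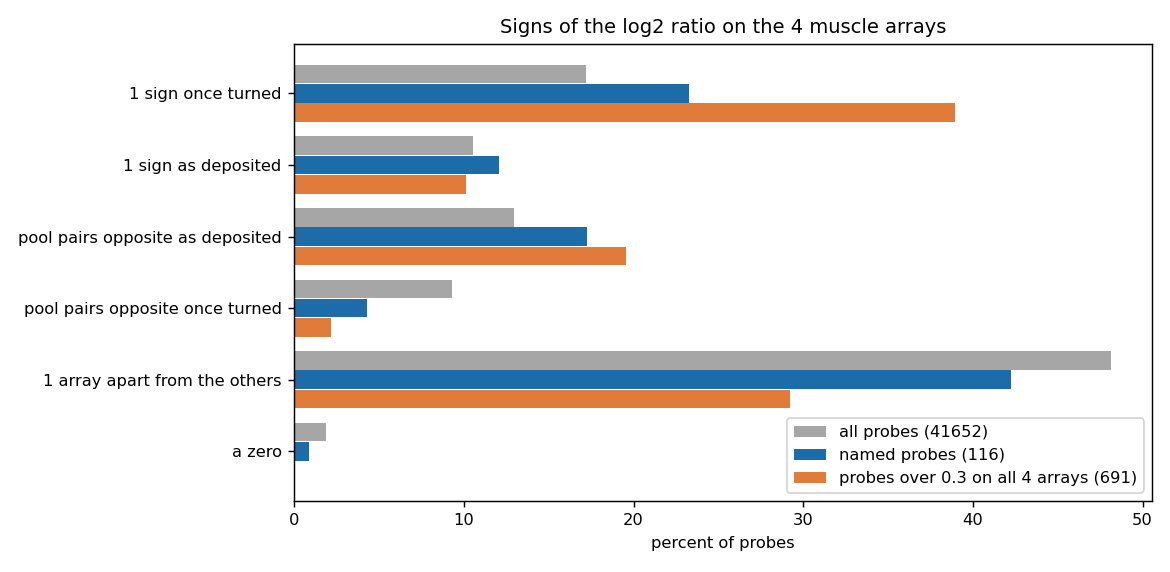
Percent of probes (x axis) with each pattern of signs over the 4 muscle arrays, for all 41,652 probes, the 116 probes with a gene name, and the 691 probes over 0.3 in size on every array. The pattern of 1 sign once turned holds 17.2% of all probes and 38.9% of the probes over 0.3, the largest of the shares in that last set.

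With muscle fitted alone in limma, 3 of 41,652 probes (0.0072%) passed an adjusted p of 0.05 when turned, all negative, and 0 (0.0%) passed as deposited. Only 1 of the 3 carries a gene name. At an unadjusted p under 0.05, limma found 5046 turned probes (12.1%), 2274 positive and 2772 negative, and 1239 as deposited (2.97%), 584 positive and 655 negative. The pools are bulk tissue, so fewer cells of a type and less RNA per cell cannot be told apart in any of the results. The fit has 1 residual degree of freedom, and limma moderated each probe's spread toward that of all probes. The prior had 4.43 degrees of freedom when turned and 2.84 as deposited. The p-values therefore rest on the spread between these 2 pool pairs and on spread borrowed from other probes.

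brd2 encodes a bromodomain protein that binds acetylated histones. Its array values were -4.58, 0.18, -3.47 and 0.85. Both arrays with large fish in 555 were low by a wide margin and both with the dyes exchanged were above 0, without overlap. The turned mean ± SD over both pool pairs was -2.27 ± 0.16, which is 4.82-fold, with an adjusted p of 0.0436 in limma. As deposited the mean was -1.76 ± 0.63 with an adjusted p of 1.00 in limma. In limma the adjusted p of the turned mean was 0.625 when the spread was shared with liver and 0.644 with the replicate number as a block. The pool pairs had turned values of -2.38 and -2.16, and a single pair leaves no spread within muscle to test.

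The remaining 2 passing probes have no gene symbol. A_05_P335732 had -3.59, -0.15, -3.28 and 0.14, with a turned mean of -1.71 ± 0.01 and an adjusted p of 0.0463 in limma. A_05_P466372 had -2.07, 1.05, -3.28 and -0.04, with a turned mean of -1.59 ± 0.04 and an adjusted p of 0.0492 in limma. As in brd2, the arrays with large fish in 555 were far below the others, which lay near 0 except for the 1.05. Only brd2 of the 3 had 1 sign on all 4 turned arrays. As deposited, A_05_P335732 had a mean of -1.72 ± 0.21 and A_05_P466372 one of -1.08 ± 0.81. In limma the adjusted p of the turned means was 0.813 for both with the spread shared with liver, 0.703 and 0.634 with the replicate number as a block, 0.213 and 0.143 with a random block, and 0.0631 for both with arrays scaled to 1 spread.

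Gene names covered 116 measured probes of 93 genes. When turned, 1 of these probes passed against 0.0072% of all probes, and 25 had an unadjusted p under 0.05 (7 positive, 18 negative) against 12.1% of all probes. Their turned means were negative at 72 of 116 probes against 46.7% of all probes, with a median of -0.05 against 0.01. Both pool pairs were negative at 54 of them against 26.3%, and 77 had the same sign in both pairs against 57.4%. A single sign on all 4 turned arrays was found at 27 (9 positive, 18 negative) against 17.2%. As deposited 0 passed, 7 had an unadjusted p under 0.05 in limma (2.97% of all probes), 14 had 1 sign on all 4 arrays (10.6%) and 63 the same sign in both pairs (47.0%). Means as deposited were negative at 60 of 116 (49.0% of all probes), with both pairs negative at 30 (23.0%).

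Of the regulators of muscle stem cells and differentiation, 6 were measured, 1 probe each, and 0 passed in limma in either reading. Turned means were negative in both pool pairs for 5 of 6, against 26.3% of all probes, with a median of -0.10. Among the 116 named probes, 54 were negative in both pairs. Only 2 of the 6 had 1 sign on all 4 turned arrays, against 17.2% of all probes. As deposited 4 of 6 means were positive and 2 negative, against 49.0% of all probes negative, and the median was 0.05. mrf4, a late-acting myogenic factor of differentiating fibres, had -0.30, 0.80, -0.51 and 0.28. Both arrays with large fish in 555 lay below 0 and both with the dyes exchanged above it. The turned mean was -0.48 ± 0.11 with an adjusted p of 0.161 in limma, and the mean as deposited was 0.07 ± 0.26. myod1, which commits cells to the muscle lineage, had -0.74, 0.41, 0.22 and 0.80. Only the array of pair 1 with large fish in 555 was negative, so the pairs have the same turned sign (-0.43 ± 0.20, adjusted p of 0.218 in limma) without 1 sign on all 4 arrays. Its mean as deposited was 0.17 ± 0.48.

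The other members of the family were closer to 0. myf5, an early commitment factor, had -0.04, 0.12, -0.11 and 0.13, with means of -0.10 ± 0.03 turned and 0.03 ± 0.02 as deposited. myod1c and myod2, further MyoD copies of salmonid fish, had turned means of -0.10 ± 0.08 and -0.06 ± 0.07, and means as deposited of 0.19 ± 0.11 and -0.05 ± 0.06. pax7 had 0.48, -0.09, -0.68 and -0.30. Its pool pairs differed in sign on the arrays with large fish in 555, and its means, 0.05 ± 0.34 turned and -0.15 ± 0.48 as deposited, were smaller than their spread.

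The fibre proteins were mostly positive in the turned reading. Of 5 measured probes of 2 genes, 4 were positive and 1 negative in both turned pairs, against 31.1% of all probes positive and 26.3% negative in both, with a median of 0.27, and 0 passed in limma. mlc-2, a fast-muscle myosin light chain, had 0.66, -0.29, 0.79 and -0.12 at its probe A_05_P488692. Values were clearly separate by dye orientation, and the turned mean was 0.47 ± 0.01 with an adjusted p of 0.155 in limma. Another mlc-2 probe had 0.28, -0.38, 0.31 and -0.21 (turned 0.30 ± 0.05), and the 2 others had turned means of 0.06 ± 0.08 and -0.12 ± 0.07. The parvalbumin gene prvb, whose protein buffers calcium so that fast fibres relax, had 0.30, -0.14, 0.62 and -0.03. Its turned mean was 0.27 ± 0.07 (adjusted p 0.312 in limma). As deposited the same probes had means of -0.06 to 0.26 with a median of 0.19, and 3 of 5 were positive in both pairs, against 24.0% of all probes. Since the table holds ratios and no intensities, the tissue could not be checked against its markers as levels.

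**Figure D3:**
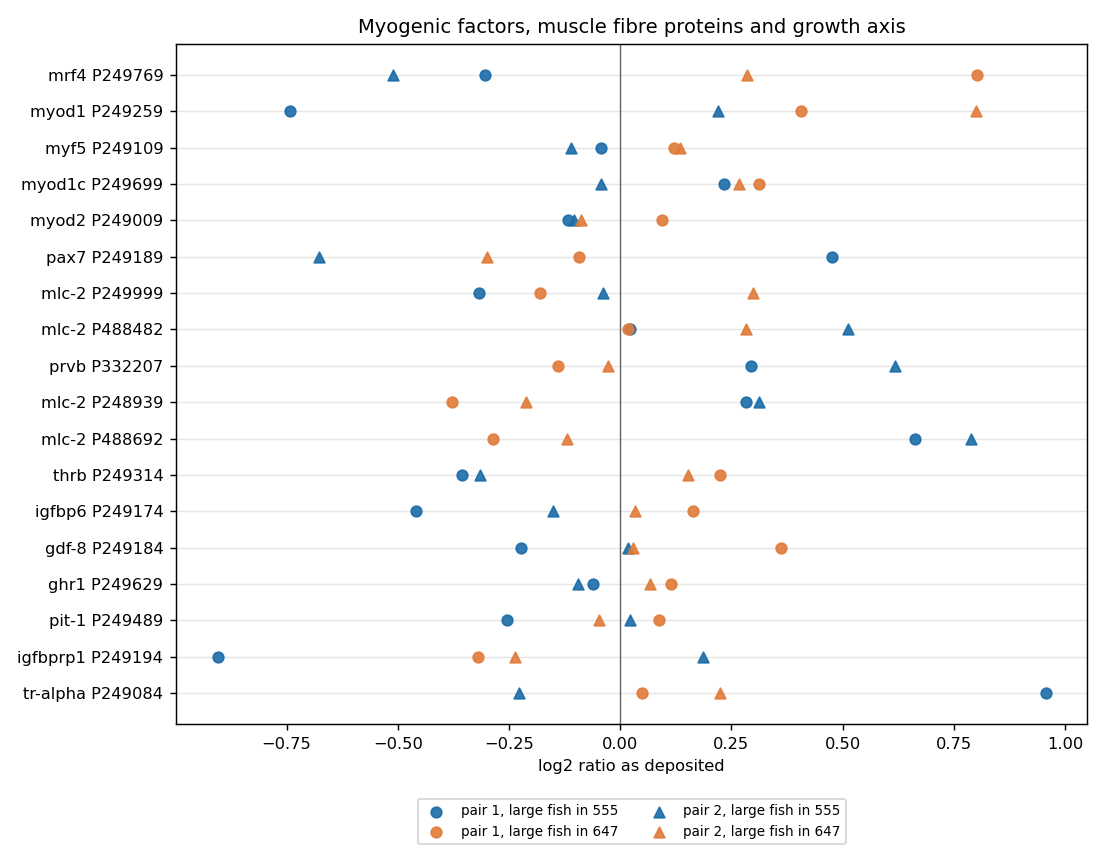
Log2 ratio as deposited (x axis) on the 4 muscle arrays for the myogenic factors, fibre proteins and growth axis genes, 1 line per probe; circles are pool pair 1, triangles pool pair 2, blue large fish in 555 and orange in 647. In mrf4 both blue points lie below 0 and both orange ones above, while for mlc-2 P488692 and prvb the order is the reverse.

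Genes of the growth hormone, insulin-like growth factor and thyroid axis had turned means of -0.26 to 0.11, and 0 passed in limma. Of these means 6 of 7 were negative, against 46.7% of all probes, with a median of -0.08. Both pairs were negative at 4 of 7, against 26.3% of all probes and 54 of the 116 named probes. The thyroid hormone receptor thrb had -0.36, 0.23, -0.31 and 0.15, a turned mean of -0.26 ± 0.04 (adjusted p 0.314 in limma). The arrays with large fish in 555 were negative and the others positive, without overlap. igfbp6, an IGF binding protein, had -0.46, 0.16, -0.15 and 0.03 (turned -0.20 ± 0.16). Myostatin (gdf-8) had -0.22, 0.36, 0.02 and 0.03, so its turned mean of -0.15 ± 0.20 came from pair 1. ghr1, a growth hormone receptor, had small values of the same turned sign on all 4 arrays, -0.06, 0.11, -0.10 and 0.07. pit-1, a pituitary transcription factor, had a turned mean of -0.07 ± 0.15. igfbprp1 (-0.91, -0.32, 0.19 and -0.24) and the thyroid receptor tr-alpha (0.96, 0.05, -0.23 and 0.22) had turned means of -0.04 ± 0.36 and 0.11 ± 0.48, each with 1 array far from the rest. As deposited the means of these 7 genes ran from -0.32 ± 0.42 for igfbprp1 to 0.25 ± 0.36 for tr-alpha, with a median of -0.05. Between them lay -0.10 ± 0.06 for igfbp6, -0.07 ± 0.01 for thrb, -0.05 ± 0.05 for pit-1, 0.01 ± 0.03 for ghr1 and 0.05 ± 0.03 for myostatin. Both pairs were negative at 4 of 7 as deposited too, against 23.0% of all probes.

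Among enzymes of glucose, amino acid and nitrogen metabolism, gapdh had the largest mean as deposited of any named probe after brd2. This glycolytic enzyme had -0.28, -1.40, -0.17 and -1.60, negative on all 4 arrays and lowest on both with large fish in 647. Its mean was -0.86 ± 0.03 as deposited (a 1.82-fold ratio, adjusted p 1.00 in limma) and 0.64 ± 0.11 turned (1.56-fold, adjusted p 0.137 in limma), so its sign rests on the reading. Both gdh2 probes, for glutamate dehydrogenase, had 1 turned sign on all 4 arrays but opposite signs from each other. The first had -0.31, 0.40, -0.77 and 0.40 (turned -0.47 ± 0.16), and the other 0.42, -0.26, 0.40 and -0.18 (turned 0.31 ± 0.04). As deposited they had -0.07 ± 0.16 and 0.10 ± 0.02. pck2, a phosphoenolpyruvate carboxykinase, had 0.56, 0.41, -1.38 and -0.45 at 1 probe and 0.35, 0.53, -0.99 and -0.79 at the other. Both were positive throughout pair 1 and negative throughout pair 2, so the means were smaller than the spread between pairs as deposited (-0.21 ± 0.99 and -0.23 ± 0.94). Turned they were -0.20 ± 0.38 and -0.10 ± 0.01.

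The fatty acid desaturases, which make polyunsaturated fatty acids, had negative means in both readings. fadsd6 had -0.95, -0.10, -0.75 and -0.56. All 4 values were negative, with a mean of -0.59 ± 0.09 as deposited and -0.26 ± 0.24 turned. fadsd5 had -0.36, 0.92, -1.70 and -0.81, a turned mean of -0.54 ± 0.14 (adjusted p 0.152 in limma) and one as deposited of -0.49 ± 1.09. It is the pair 1 array with large fish in 647 that stood above 0. The lipid sensor pparb2a was positive on all 4 arrays (0.52, 0.07, 0.03 and 0.44), with means of 0.26 ± 0.04 as deposited and 0.01 ± 0.31 turned. sr-bi, a receptor that takes up lipoprotein cholesterol and also serves carotenoid uptake, had -0.20, -0.39, 0.05 and -0.58. Its means were -0.28 ± 0.03 as deposited and 0.20 ± 0.16 turned, and pparg, a regulator of fat cells, had 0.10 ± 0.05 and 0.17 ± 0.20.

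Transcripts of plasma proteins made by liver and of the alpha globin of red blood cells were measured in the muscle pools, at 9 probes of 5 genes. Turned, 8 of 9 were negative in both pool pairs, against 26.3% of all probes, with a median of -0.23. The same held for 54 of the 116 named probes. However, 0 of 9 had 1 sign on all 4 turned arrays, against 17.2% of all probes. In the reading as deposited 0 of 9 were negative in both pairs, against 23.0% of all probes. As deposited, 6 of 9 had 1 sign within each pair and opposite signs between pairs, against 13.0% of all probes, and all 6 were positive in pair 1. The transferrin (trf) probe A_05_P474597, for the iron carrier of plasma, had 0.66, 0.91, -1.85 and -1.04. Albumin (alb1) had 0.30, 1.02, -0.95 and -0.90, and the coagulation inhibitor antithrombin 0.17, 0.47, -0.77 and -0.51. In each the 2 arrays of pair 1 lay above 0 and those of pair 2 below, with no overlap. spp2, a secreted phosphoprotein, had 0.13, 0.98, -1.15 and -0.15, with a turned mean of -0.46 ± 0.05 (adjusted p 0.157 in limma) and one as deposited of -0.05 ± 0.85.

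Of the transferrin probes, A_05_P249269 did not follow this, with -0.20, 0.57, -1.22 and -0.74. Nor did all of the globin probes of hba. Probe A_05_P491417 had 0.01, 0.60, -0.66 and -0.33, and A_05_P249379 had -0.21, 0.71, -0.74 and -0.28. The third, A_05_P332705, had 0.25, 0.02, 0.42 and -0.32, and positive means of 0.24 ± 0.18 turned and 0.09 ± 0.06 as deposited. Of the 20 named probes with opposite pairs as deposited, 14 were positive in pair 1, against 48.7% of all such probes. Both pck2 probes and the trp-i probe with the larger ratios (0.76, 0.91, -0.65 and -0.31) were among them. The other trp-i probe had -0.09, -0.02, -0.02 and -0.15. A sign shared within a pair as deposited compares large with small fish only if the authors had already turned the arrays. Whether liver transcripts, blood, the dyes or another source gave the opposite pairs was not tested, and their part in the other results was not tested.

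**Figure D4:**
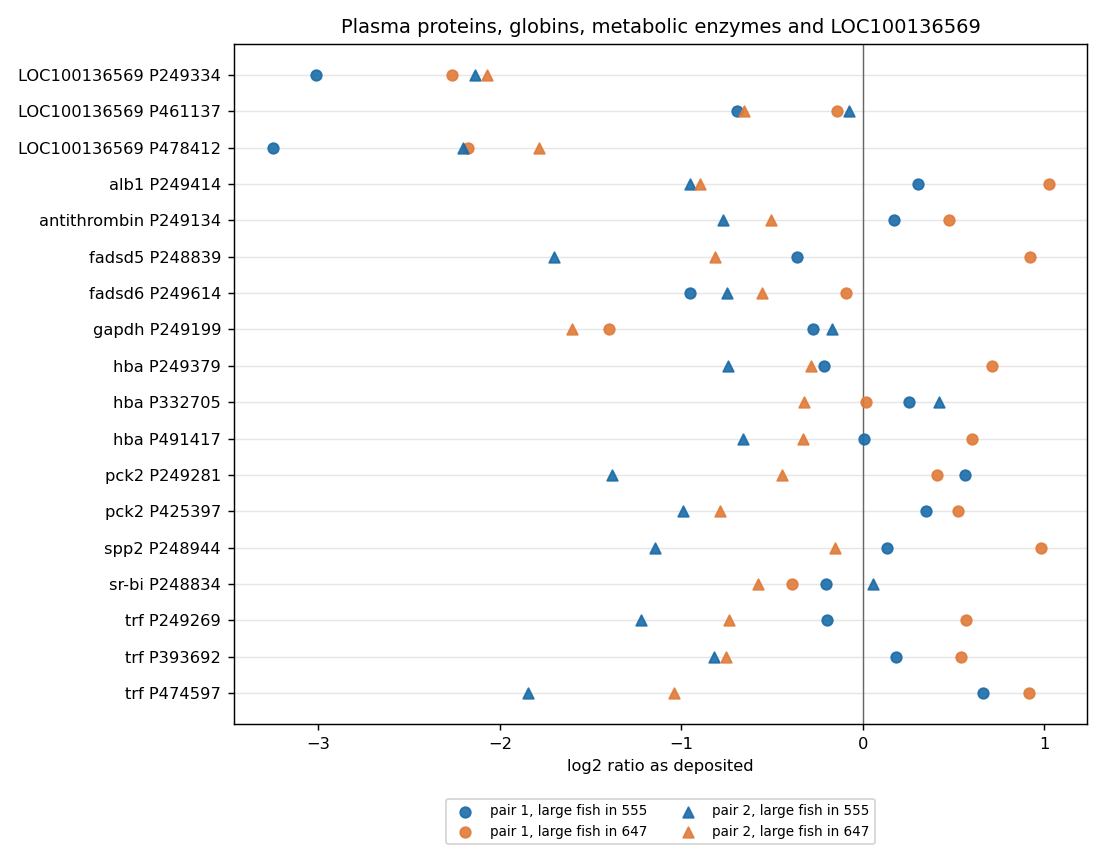
Log2 ratio as deposited (x axis) on the 4 muscle arrays for plasma protein, globin and metabolic probes and LOC100136569; circles are pool pair 1, triangles pool pair 2, blue large fish in 555 and orange in 647. For alb1, antithrombin, spp2, pck2 and trf A_05_P474597, all circles lie above 0 and all triangles below, while gapdh and LOC100136569 are negative on all 4 arrays.

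No immune gene passed in limma in either reading. Among 13 probes of interferon and innate immunity genes, turned means ran from -0.09 to 0.09 and means as deposited from -0.12 to 0.25. In limma 0 had an unadjusted p under 0.05 in either reading, against 12.1% of all probes turned and 2.97% as deposited. With 13 probes, nothing is read from this count. The interferon-induced antiviral gene mx1 had 0.08, 0.27, 0.23 and 0.42 at 1 probe, positive on all 4 arrays, with a mean of 0.25 ± 0.11 as deposited and -0.09 turned. Its second probe had -0.04 as deposited and -0.06 turned. The 10 probes of class I antigen processing had turned means of -0.14 to 0.25. tap2b, a peptide transporter of that pathway, was highest when turned (0.35, -0.25, 0.54 and 0.13), with 0.25 ± 0.07, and had 0.19 ± 0.20 as deposited. The immunoproteasome subunit psmb8b had -0.67, -0.14, -0.17 and -0.14, with means of -0.28 ± 0.18 as deposited and -0.14 ± 0.18 turned.

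Stress, xenobiotic and ion transport genes held no passing probe. The chaperone hsp90b gave turned means of -0.26 ± 0.18, -0.12 and 0.09 ± 0.13 at its 3 probes, which as deposited had -0.02 ± 0.05, 0.23 ± 0.50 and 0.00 ± 0.17. The chaperone hsp70 had 1.05, 0.01, -0.76 and 0.38, with turned pairs of opposite sign (-0.03 ± 0.77) and 0.17 ± 0.51 as deposited. cyp1a, which oxidises foreign compounds, had -0.44, 0.49, -0.69 and -0.44 at 1 probe (turned -0.30 ± 0.24) and a turned 0.07 ± 0.05 at the other. As deposited the cyp1a probes had -0.27 ± 0.42 and -0.10 ± 0.04. The aryl hydrocarbon receptor ahr2d had 1.03, 0.08, 0.07 and 0.17, with 1 array far above the rest, and means of 0.21 ± 0.37 turned and 0.34 ± 0.31 as deposited. The 11 probes of ion transport were those of fxyd regulators of the sodium pump, nkcc1a and slc6a6. Their means stayed between -0.20 and 0.15 when turned, and between -0.15 and 0.13 as deposited.

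Among signalling genes, mkk6a, a kinase upstream of p38, had -0.31, 0.62, -0.17 and 0.39, negative on the arrays with large fish in 555 and positive on the others (turned -0.37 ± 0.13, adjusted p 0.220 in limma). Its mean as deposited was 0.13 ± 0.03. hn1 and hn1l had turned means of -0.32 ± 0.12, -0.38 ± 0.21 and, at another hn1l probe, -0.08 ± 0.07. As deposited these were 0.28 ± 0.24, 0.04 ± 0.03 and -0.08 ± 0.04. p38a and p38b, the kinases mkk6a acts on, had 0.05 ± 0.19 and -0.07 ± 0.26 turned, and 0.30 ± 0.52 and 0.04 ± 0.04 as deposited. Of the reproductive genes, the follicle-stimulating hormone receptor fshr had 0.82, -0.14, 0.07 and -0.35 (turned 0.35 ± 0.19, adjusted p 0.280 in limma). Its mean as deposited was 0.10 ± 0.34. The oestrogen receptor esr1 had -0.15 ± 0.44 and -0.01 ± 0.03 turned, and 0.15 ± 0.20 and -0.11 ± 0.02 as deposited.

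**Figure D5:**
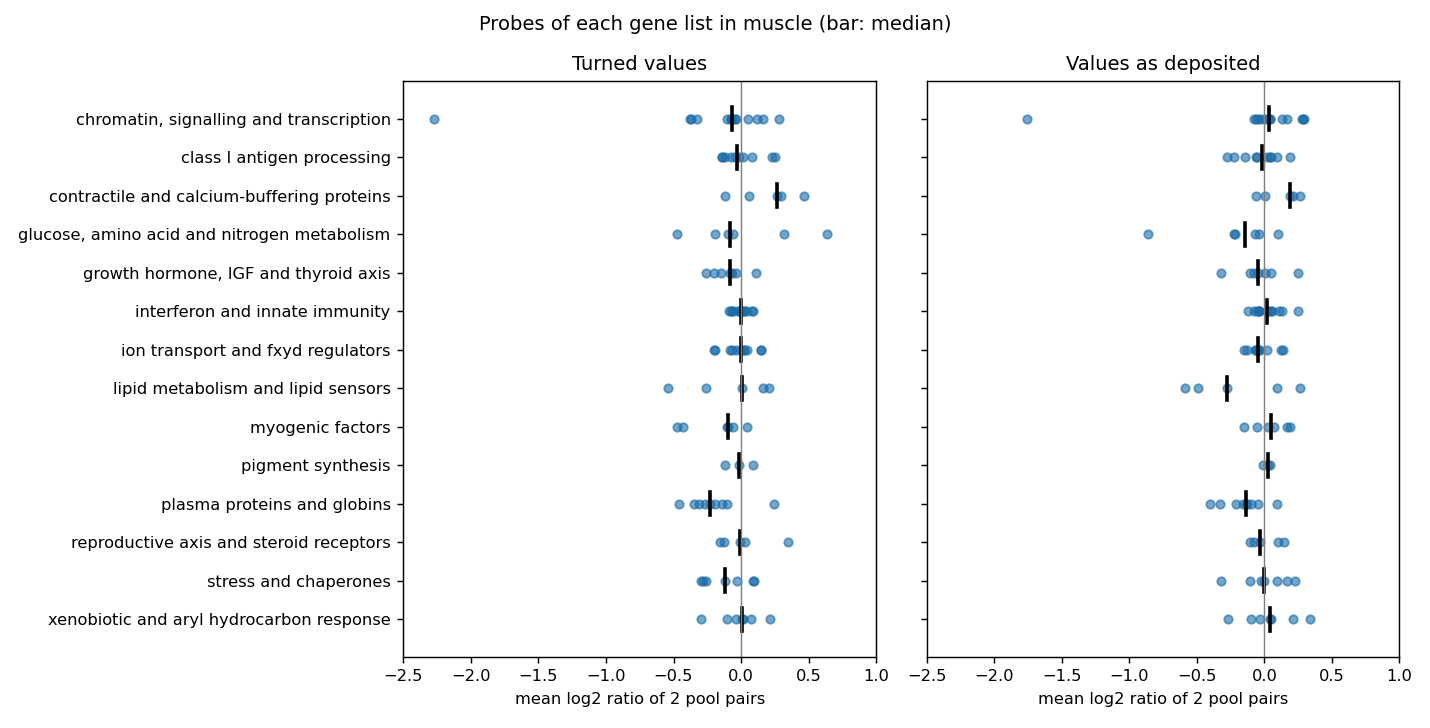
Mean log2 ratio over the 2 pool pairs (x axis) of each named probe, grouped by function, turned on the left and as deposited on the right; each point is a probe and the bar is the group's median. Turned medians reach 0.27 for the contractile and calcium-buffering proteins and -0.23 for plasma proteins and globins, and the point at -2.27 is brd2.

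Locus placeholders, which carry a locus number in place of a gene name, held some of the largest ratios. LOC100136569 had -3.01, -2.27, -2.14 and -2.07 at 1 probe and -3.25, -2.18, -2.20 and -1.79 at another. All 8 values were strongly negative, with means as deposited of -2.37 ± 0.38 and -2.35 ± 0.51 and turned means of -0.20 ± 0.24 and -0.37 ± 0.23. A sign shared by all 4 arrays as deposited compares the sizes only if the authors had already turned the arrays. The remaining probe of the locus had -0.39 ± 0.04 as deposited. When turned, LOC100136565 had -0.84 ± 0.06 at 1 probe (adjusted p 0.137 in limma), but 0.01, -0.39 and -0.10 at its 3 others. The 3 probes of LOC100136525 gave -0.53 ± 0.10, -0.55 ± 0.34 and -0.53 ± 0.13, and a probe of LOC100137051 gave 0.57 ± 0.20. As deposited the LOC100136565 probes ran from 0.08 to 0.22 and those of LOC100136525 from 0.07 to 0.22, which is the other sign except at the first-named of the 3 other LOC100136565 probes, and the LOC100137051 probe had 0.04 ± 0.05. Without a symbol, A_05_P483962 had 1.16, -1.27, 1.19 and -1.40, alike in size on all arrays and opposite between the dyes, with a turned mean of 1.26 ± 0.06 and one as deposited of -0.08 ± 0.03. A_05_P276614 had -2.35, -1.46, -2.15 and -1.76, negative on all 4 arrays, with a mean as deposited of -1.93 ± 0.03 and a turned mean of -0.32 ± 0.17.

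Where several probes stood for 1 gene they often disagreed: of 17 such genes, 6 had 1 sign at all of their probes in the turned reading and 6 as deposited. gdh2 and hba are turned examples already given, and mlc-2 had 3 positive probes and 1 negative. The annotation ties the probes of mlc-2, cyp1a, hba, trp-i and rig to more than 1 sequence record each, so these need not measure 1 transcript. Both gdh2 probes share 1 record, however, as do the mlc-2 probes with turned means of 0.47 and -0.12.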

How the data were processed

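The values the authors deposited, 1 for every probe on an array, were taken to be log2 ratios between the channels. This rests on the values themselves: within 0.05 thousandths, 98.4 to 99.0% of muscle values of 0.2 to 2 in size fell on a ratio rounded to 3 decimals, against 11.1 to 11.9% with the sign turned. Trizol extraction, magnetic mRNA isolation and direct cDNA labelling with Alexa Fluor 555 or 647 came before hybridisation, per the labels' protocols. Scanner software, background correction and normalization are not given in the sources used here. With no intensities used, dim probes could not be filtered, and the number of pools limits the precision.

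The 60 control spots were left out. The 2 arrays of a pool pair hold the same RNA and gave a probe 1 value, their mean with the 647 array's sign turned or as deposited. These values entered limma 3.58.1, run in R 4.3.3 (lmFit and eBayes, two-sided, Benjamini-Hochberg over 41,652 probes), after a test on simulated data. The simulation drew independent pair values with the spread fitted here, so it checks the code and lends no support to the p-values. Symbols came from the platform annotation: 221 probes carried 1 symbol, 43,382 none and 0 several, and 104 of the 221 were locus placeholders. None of the accessions (0) matched the reference table, so positions and sequences are not given.

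The replicate number in the titles was taken to mark the pool pair. In muscle the deviations of same-numbered arrays correlated at 0.228 as deposited and -0.228 turned. With the random block, limma estimated a correlation within pairs of -0.322 turned and -0.226 as deposited. Turned, both measures were negative, and averaged pair values can then lie closer together than independent arrays would give. As deposited the measures differed in sign. Named genes were, for each reading, the passing probes, the 10 lowest-p probes per side whose 4 arrays shared a sign, the 2 lowest p of each of 14 lists, and every probe of the myogenic, contractile and growth lists, with other probes of those genes. Placeholders were limited to 3 per side, and probes without a symbol to the passing ones or 2 per side. Genes given outside this rule were chosen after their values were seen. The experiment, the members, the lists and the rule were chosen with earlier results of these data known. Some symbols joined or left a list after the annotation or values were seen, so no list was tested.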

Additional observations from a re-analysis of the deposited data

Results flagged for a closer look

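At 7 of the 96 described probes, 1 of the 4 muscle arrays lay far from the other 3 by Dixon's criterion, in 9 of 192 tests; chance gives about 1 in 20. In the turned reading these arrays had -0.91 for igfbprp1, 0.96 for tr-alpha, 0.088 for myod2 and 0.38 for a sod1 probe. As deposited they had -0.67 for psmb8b, 0.094 for myod2, -0.30 for an hsp90b probe, 0.38 for the same sod1 probe and 1.03 for ahr2d.

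For 3 of the 84 described probes with a value on all 8 arrays, each of another gene, every turned liver array had one sign and every turned muscle array the other; the difference between the tissues was not tested. The same held for 1.01% of the 34,757 probes measured in both tissues, and many described probes were chosen for having 1 sign on all 4 muscle arrays, so nothing is read from the count. The mean of mx2, an interferon-induced antiviral gene, was -0.42 in liver and 0.09 in muscle. tyrp-1b, of melanin synthesis, had 0.37 and -0.12. The gonadotropin-releasing hormone gene gnrh had 0.48 and -0.13.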

How the results depend on the processing

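In limma, the 3 turned probes that passed also passed with each array centred and with robust moderation. Only brd2 (1 probe) passed with arrays scaled to 1 spread, its adjusted p being 0.0207. The count was 0 with the spread shared with liver, with the replicate number as a fixed replicate block, with probes needing only 1 array per pair, and without either replicate (0 to 0, the lone pair taken to vary like liver). A random block gave 3, but other probes (A_05_P377102, A_05_P437897 and A_05_P483962), with brd2 at 0.150. Over all alternatives that kept both pool pairs, the adjusted p of brd2 in limma ran from 0.0207 to 0.729. With the pair numbers crossed, chosen after seeing the data, 0 passed turned and 6 as deposited, all negative. Crossing kept every mean and exchanged the spread between the 2 readings. The prior then had 2.84 degrees of freedom turned and 4.43 as deposited. Every other alternative passed 0 as deposited. Turned probes at an unadjusted p under 0.05 in limma numbered 5046, but 1950 with the spread shared, 3170 with the fixed block, 2725 crossed, and 415 and 432 without replicate 1 or 2. As deposited they numbered 1239, but 710 shared, 2196 with the random block, 2590 crossed, and 733 and 553 without replicate 1 or 2. Of 96 described probes (including 12 of locus placeholders and 8 without a symbol), the turned mean changed sign at 1 with centring, 2 with scaling, and 8 and 12 without replicate 1 or 2; as deposited these were 1, 1, 18 and 19. Averaging over the probes of a gene changed the sign at 8 of 31 turned and 11 of 31 as deposited. Apart from the crossing, why these values moved was not tested. The precision is set by 2 pool pairs.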
